A study of Mus musculus with 6 samples.

Results

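Collagen hydroxylases are the enzymes of the endoplasmic reticulum that add hydroxyl groups to proline and lysine in newly made collagen chains. The prolyl 3-hydroxylases among them were counted with other collagen-processing proteins further on. The 9 genes described here were lysyl hydroxylases, prolyl 4-hydroxylase subunits and the carriers that bring ascorbate into cells. They were chosen by name: lysyl hydroxylases Plod1, Plod2 and Plod3, prolyl 4-hydroxylase subunits P4ha1, P4ha2, P4ha3 and P4hb, and ascorbate transporters Slc23a1 and Slc23a2. All 9 were found among the 19938 genes that had a transcript cluster of their own on the array, each with 1 cluster. Expression was measured in 6 samples of enterospheres, spheres of cells that grow in suspension after the muscle layers of the gut of newborn (P0) C57BL/6 mice are dissociated. In the differentiation group, 3 samples spent 9 days in proliferation medium and the last 2 days in differentiation medium, which contained ascorbic acid-2-phosphate and neither EGF nor FGF. In the proliferation group, 3 samples stayed for all 11 days in proliferation medium with EGF (10 ng/mL by the labels, more by the methods) and FGF (20 ng/mL), for which no ascorbate compound is listed. All samples were wild type, 3 pups per sample by the labels and fewer by the methods, and only floating spheres were picked, which by the methods was meant to lower the share of adherent fibroblasts and smooth muscle cells. The labels give the ascorbate compound as 200 µmol/mL and the methods give the same figure in µM, so its concentration is not settled. The labels also list the supplement B27 for proliferation medium, whereas by the methods it was added once before seeding. The addition of the ascorbate compound and the withdrawal of EGF and FGF coincide and cannot be told apart in this comparison.

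Both kinds of collagen hydroxylase use iron, oxygen and 2-oxoglutarate, and ascorbate returns their iron to the active state, which is why collagen is under-hydroxylated in scurvy. Hydroxyproline holds the collagen triple helix together at body temperature, while hydroxylysine carries sugars and takes part in the crosslinks between collagen molecules. Ascorbate itself enters cells through sodium-dependent carriers. In the gut wall, smooth muscle cells and fibroblasts deposit most of the collagen, and enteric glia and neural progenitors lie within this matrix.

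Values below are log2 RMA values, a normalized intensity scale on which 1 unit is a doubling, with 3 arrays in each group. A linear model in limma gave the difference, differentiation minus proliferation, and a gene was taken as changed where the p-value, adjusted over all 35556 clusters by Benjamini-Hochberg, lay under 0.05. By this test 1 of the 9 genes rose (Plod3), 1 fell (P4ha1) and 7 did not pass. Over all measured genes, 5.91% passed, 2.94% upwards and 2.97% downwards. Both Plod3 and P4ha1 are listed by the study among matrix genes selected on these same samples, so their direction is not independent evidence. In 6 of the 9 genes the groups did not overlap, 3 of them higher and 3 lower in differentiation, against 27.5% of all genes (14.6% higher and 12.9% lower). An unadjusted p under 0.05 was found for 5 of the 9 and for 19.1% of all genes. The median log2 fold change was -0.12 over the 9 genes and 0.02 over all genes. A comparison of 3 arrays with 3 allows a two-sided exact permutation p no lower than 0.1, so the p-values given are those of limma. The arrays hold RNA of mixed spheres, in which fewer cells of a type and less RNA per cell cannot be told apart.

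**Figure D1:**
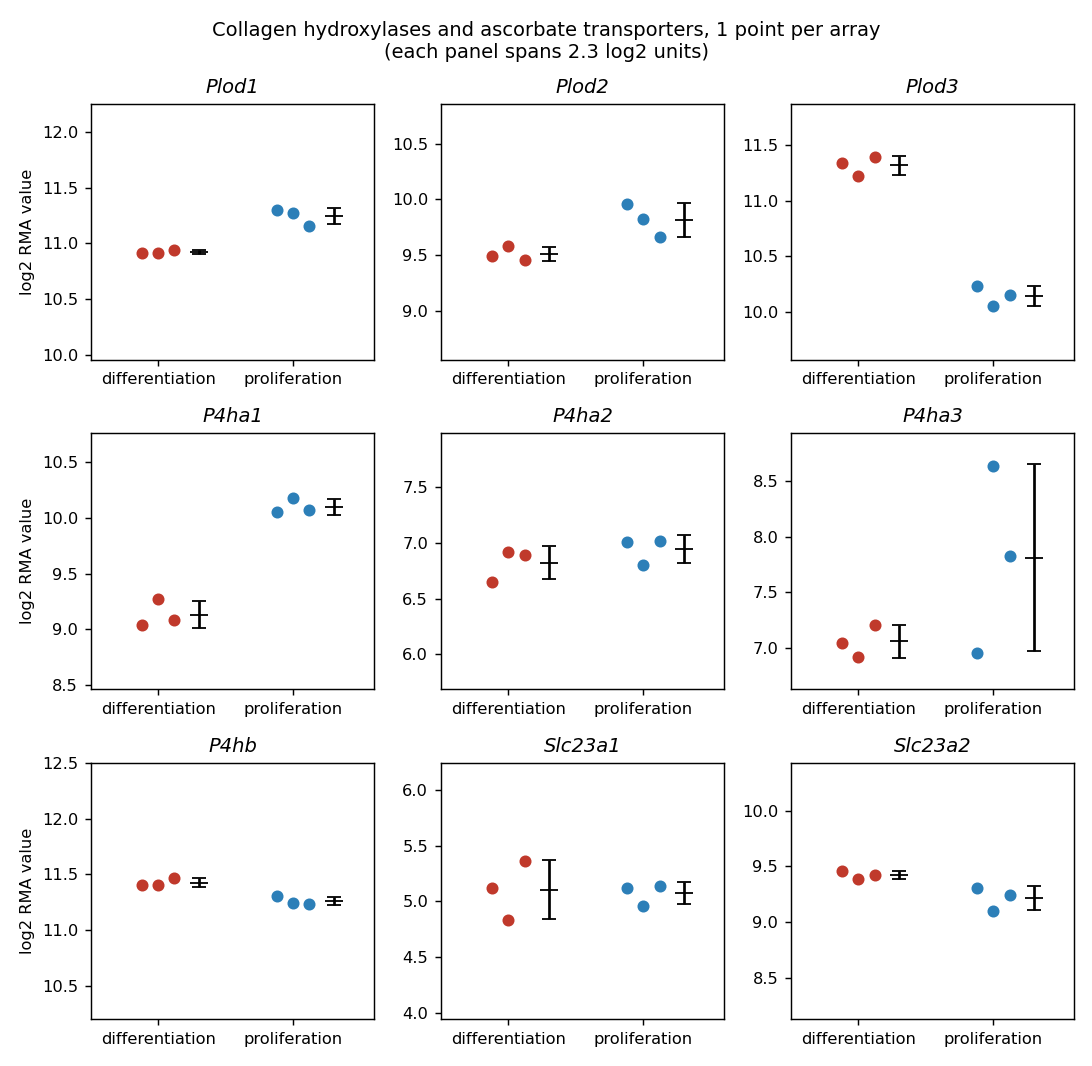
Log2 RMA value (vertical axis) of each of the 9 genes in the 3 differentiation arrays (red) and the 3 proliferation arrays (blue), 1 point per array, with the mean and SD as black bars. Plod3 lies at 11.22 to 11.39 in differentiation and 10.05 to 10.23 in proliferation, P4ha1 shows the opposite order, and P4ha3 spreads from 6.96 to 8.64 among the proliferation arrays alone.

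Plod3 encodes lysyl hydroxylase 3, which hydroxylates lysine and can also attach galactose and glucose to hydroxylysine, and it was the member with the largest change. Its values were 11.34, 11.22 and 11.39 in differentiation and 10.23, 10.05 and 10.15 in proliferation (transcript cluster 10526520). The lowest differentiation array lay 0.99 above the highest proliferation array. Plod3 rose 2.25-fold in differentiating enterospheres, and the fitted log2 difference was 1.17 with SE 0.09 (limma, adjusted p = 0.00292). With any single array left out it still passed, with log2 fold changes between 1.12 and 1.22 and adjusted p between 0.00702 and 0.0284.

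P4ha1 encodes a catalytic alpha subunit of prolyl 4-hydroxylase and was the only member that fell. Its values were 9.04, 9.27 and 9.08 in differentiation, against 10.05, 10.18 and 10.07 in proliferation (transcript cluster 10363350). All differentiation arrays were low, with a gap of 0.78 between the groups. P4ha1 was expressed 1.96-fold lower in differentiation, and the fitted log2 difference was -0.97 with SE 0.09 (limma, adjusted p = 0.00488). Leaving out each array in turn gave log2 fold changes between -1.04 and -0.92 and adjusted p between 0.012 and 0.0402.

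The stretches of genome before Plod3 and P4ha1 are shown because these genes moved in opposite directions. In both, capitals mark the core of the hypoxia response element, the letters ACGTG or GCGTG on either strand, to which hypoxia-inducible factor can bind and of which ACGTG overlaps the E-box CACGTG. The Plod3 stretch is chr5:136986859-136987018 and the P4ha1 stretch chr10:59323046-59323196, both on the plus strand of GRCm38.p6 (RefSeq), and each ends 1 base before the annotated gene.
Plod3: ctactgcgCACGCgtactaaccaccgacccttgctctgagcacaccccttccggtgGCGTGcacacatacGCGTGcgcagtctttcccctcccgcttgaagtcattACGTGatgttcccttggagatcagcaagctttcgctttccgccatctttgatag
P4ha1: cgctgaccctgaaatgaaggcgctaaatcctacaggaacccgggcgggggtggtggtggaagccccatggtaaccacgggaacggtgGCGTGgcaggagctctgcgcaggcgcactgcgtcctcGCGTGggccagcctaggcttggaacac
The Plod3 stretch held 4 such cores and the P4ha1 stretch 2. The stretches cover unlike parts of the windows described next, as that of P4ha1 stops short of the start site of its window. These 2 counts are therefore not compared. Over full windows of 300 bases, from 250 before to 50 after a start site, Plod3 held 4 and P4ha1 held 3, as the third core of P4ha1 lay past the end of the stretch shown. By gene, 6 of the 7 genes matched to a window held at least 1 core (Plod1, Plod3, P4ha1, P4ha2, P4hb and Slc23a2), and P4ha3 held 0. Plod2 and Slc23a1 were not matched. Of all 27025 genes with a window, 46.7% held a core, and of the hypoxia-inducible factor targets listed further on, 26 of 27 with a window did (96.3%). That list was made of known targets of the factor, so a high share in it was likely beforehand. Of all 32851 windows, 43.8% held one. The matches describe letters in these windows, and binding was not measured.

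The other lysyl hydroxylases did not follow Plod3. Plod1 encodes lysyl hydroxylase 1, which acts on the helical part of collagen and whose loss in humans causes a form of Ehlers-Danlos syndrome. It had values of 10.91, 10.91 and 10.94 in differentiation and 11.30, 11.27 and 11.16 in proliferation. The differentiation arrays were all lower, by a gap of 0.22, yet the log2 fold change of -0.33 (95% interval -0.51 to -0.14) did not pass after adjustment (adjusted p = 0.0809 from limma). Plod2 encodes lysyl hydroxylase 2, which acts on the ends of the chains and sets the type of crosslink. For Plod2 the arrays read 9.49, 9.58 and 9.46 in differentiation and 9.96, 9.82 and 9.66 in proliferation. These groups were also apart, by 0.08, with a log2 fold change of -0.30 (95% interval -0.55 to -0.06, adjusted p = 0.199). Thus the fitted values of Plod1 and Plod2 lay below 0 and that of Plod3 above it, and only the Plod3 difference passed the test.

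**Figure D2:**
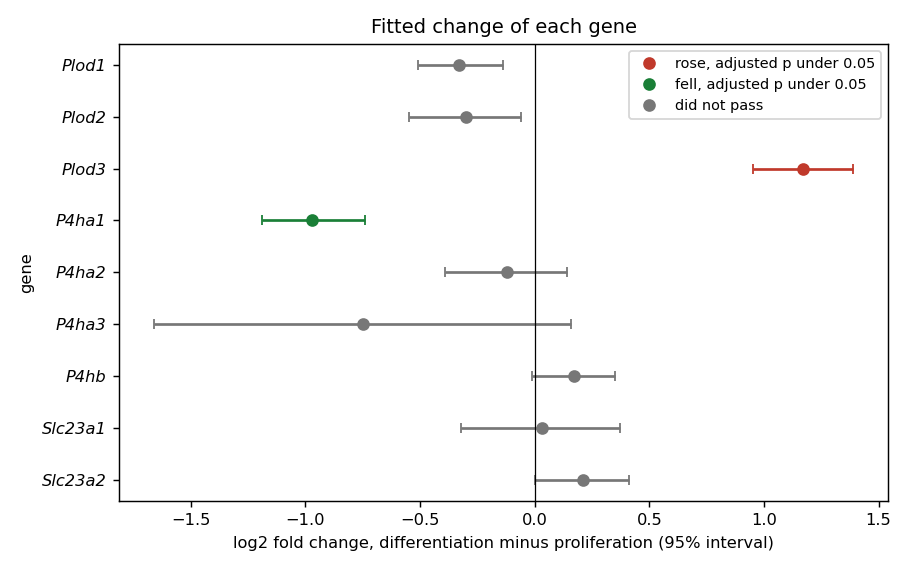
Fitted log2 fold change, differentiation minus proliferation (horizontal axis), of each of the 9 genes (vertical axis), with the 95% interval from limma, which is not adjusted for the number of genes, and 3 arrays per group. Plod3 (red) stands at 1.17 and P4ha1 (green) at -0.97, the grey genes did not pass the adjusted test, and the interval of P4ha3 is the widest of the 9, from -1.66 to 0.16.

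The remaining subunits of prolyl 4-hydroxylase did not pass the test. P4ha2, an alternative catalytic alpha subunit, had values of 6.65, 6.92 and 6.89 in differentiation and 7.01, 6.80 and 7.02 in proliferation. These overlapped, and the log2 fold change was -0.12 (95% interval -0.39 to 0.14, adjusted p = 0.679 from limma). P4ha3, a further alpha subunit, read 7.05, 6.92 and 7.21 in differentiation and 6.96, 8.64 and 7.83 in proliferation. The proliferation arrays disagreed with each other, with an SD of 0.84 against 0.14 in differentiation, and proliferation replicate 1 lay within the range of the differentiation arrays. Its log2 fold change of -0.75 (95% interval -1.66 to 0.16, adjusted p = 0.425) became -1.18 without proliferation replicate 1 and -0.33 without proliferation replicate 2 (adjusted p = 0.072 and 0.651).

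P4hb encodes protein disulfide isomerase, which is the beta subunit of prolyl 4-hydroxylase and in addition forms disulfide bonds in many secreted proteins. It read 11.40, 11.40 and 11.47 in differentiation and 11.30, 11.24 and 11.23 in proliferation. The differentiation arrays were higher by a gap of 0.10, with a log2 fold change of 0.17 (95% interval -0.01 to 0.35, adjusted p = 0.354 from limma). Neither the beta subunit nor P4ha2 therefore showed a decrease of the size seen for P4ha1, as the lower bounds of both intervals lay above -0.74, the upper bound for P4ha1.

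Of the ascorbate transporters, Slc23a2 encodes the carrier SVCT2, which is widespread and serves neurons and glia in particular. Its arrays gave 9.46, 9.39 and 9.42 in differentiation and 9.31, 9.10 and 9.24 in proliferation. The groups did not overlap, with a gap of 0.09, and the log2 fold change of 0.21 (95% interval 0.00 to 0.41) did not pass (adjusted p = 0.312 from limma). Slc23a1 encodes SVCT1, the carrier of intestinal and renal epithelium. It had values of 5.12, 4.83 and 5.36 in differentiation and 5.12, 4.96 and 5.14 in proliferation. These overlapped and lay below the median cluster mean of 6.15 on every array. No detection call was used, so whether Slc23a1 was expressed is not settled by these values. The Slc23a1 log2 fold change was 0.03 (95% interval -0.32 to 0.37, adjusted p = 0.955), and its sign turned to -0.03 after cyclic loess and to -0.01 after centring the arrays on their medians.

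To compare the genes within the same array, which sets aside any shift shared by a whole array, the difference between 2 genes was taken array by array in 7 pairs. The level of one gene against another is not read from these values, since probes differ in brightness. A shift of their difference between the groups describes how unequally the 2 genes changed. It equals the difference of their fold changes given above, so it restates them and is not further evidence. The difference Plod3 minus Plod1 averaged 0.40 ± 0.07 in differentiation and -1.10 ± 0.11 in proliferation (SD, n = 3 each), a shift of 1.50. For Plod3 minus Plod2 the shift was 1.47, whereas for Plod1 minus Plod2 it was -0.02 with overlapping groups. Among prolyl 4-hydroxylase subunits, P4ha1 minus P4hb averaged -2.29 ± 0.14 in differentiation and -1.16 ± 0.10 in proliferation (SD, n = 3 each), a shift of -1.14. P4ha1 minus P4ha2 shifted by -0.85 and P4ha2 minus P4hb by -0.29. The widest shift, 2.14, belonged to Plod3 minus P4ha1, which the choice of the genes with the strongest increase and decrease favours. Groups did not overlap in 6 of the 7 pairs, each with an exact two-sided permutation p of 0.1, the smallest that 3 against 3 arrays allow, and 0.117 after Benjamini-Hochberg adjustment over the 7 pairs. Pairs that hold Plod3 or P4ha1 carry over the gaps of these genes, so their lack of overlap was likely beforehand.

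**Figure D3:**
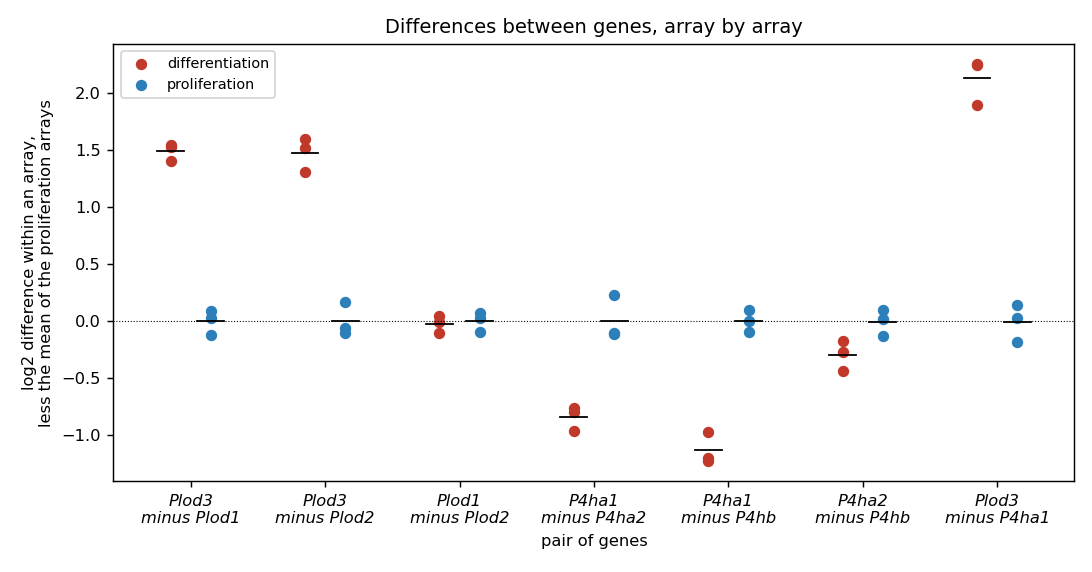
Difference between the log2 RMA values of 2 genes within the same array, less the mean of that difference over the proliferation arrays (vertical axis), for 7 pairs of genes (horizontal axis), with differentiation arrays in red, proliferation arrays in blue and black bars for the means. The red points lie about 1.50 above the blue for Plod3 minus Plod1 and 1.14 below them for P4ha1 minus P4hb, and both colours share one range for Plod1 minus Plod2.

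Genes around these enzymes were described with 6 lists, by how many of their measured members passed limma's adjusted test, beside the 5.91% of all genes that did. Counts with an array left out are to be read beside those of the whole table. There 1459 clusters passed with all arrays, 294 without differentiation replicate 1 and 480 without proliferation replicate 3. Without differentiation replicate 2 or 3 these numbered 683 and 850, and without proliferation replicate 1 or 2 they numbered 1297 and 1213. Other proteins that process collagen in the endoplasmic reticulum showed 1 decrease and 0 increases among 17 measured (5.88%), with a median log2 fold change of -0.15. The decrease was that of Colgalt2, a galactosyltransferase that adds sugar to hydroxylysine, at 5.65, 5.74 and 5.60 in differentiation and 6.19, 6.53 and 6.20 in proliferation (fitted log2 difference -0.65 with SE 0.11, limma adjusted p = 0.0288). Colgalt2, and with it the list, no longer passed when any differentiation array or proliferation replicate 3 was left out (adjusted p between 0.0762 and 0.136). Protein disulfide isomerases, the family of P4hb, were listed together with chaperones, and 0 of these 23 genes passed limma's adjusted test, with a median of 0.03. In this list 2 of the 23 genes had an unadjusted p under 0.05, beside 19.1% of all genes. With array weights 4 of the 23 passed, a setting under which 12721 of all 35556 clusters did.

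Other dioxygenases and ascorbate-dependent enzymes were mostly not past the test: 2 of 25 fell, 0 rose, and the median was -0.01. Egln3, a prolyl hydroxylase that marks hypoxia-inducible factor for destruction, read 8.85, 9.01 and 9.01 in differentiation and 9.60, 9.70 and 9.65 in proliferation. Its fitted log2 difference was -0.70 with SE 0.09 (limma, adjusted p = 0.00877). Asph, which hydroxylates aspartate in EGF-like domains, fell as well, with a fitted log2 difference of -0.60 and SE 0.09 (adjusted p = 0.0172). When differentiation replicate 1 or proliferation replicate 3 was left out 0 of the list passed, and without differentiation replicate 3 Egln3 alone did (adjusted p where lost 0.0519 to 0.0579 for Egln3 and 0.0556 to 0.102 for Asph).

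In the list of ascorbate synthesis, recycling and transport of its oxidised form, 2 of 19 rose and 1 fell, with a median of 0.06. Ugdh and Ugp2, which make UDP-glucuronate and UDP-glucose and so serve proteoglycan and glycogen synthesis too, both rose by 0.61 log2 units (limma, adjusted p = 0.0082 and 0.0453). The study lists Ugdh among matrix genes selected on these samples. Glrx, a glutaredoxin that can reduce dehydroascorbate, was the gene of this list that fell, with a log2 difference of -0.75 (adjusted p = 0.0402). Gulo, the last enzyme of ascorbate synthesis in mouse liver, had overlapping values with means under 6.15 and an adjusted p of 0.929. Ugdh did not pass without differentiation replicate 1 (adjusted p = 0.0637), and Ugp2 and Glrx passed only with all arrays or without proliferation replicate 2 (adjusted p up to 0.177 and 0.17). Without differentiation replicate 1 the count of this list was 0, and without each other array but proliferation replicate 2 it was 1.

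Collagen chains are the substrate of these enzymes. Among 25 of them 4 rose and 1 fell, which left 20 that did not pass, and the median log2 difference was 0.12. Col14a1, a chain that sits on fibrils, read 10.26, 10.04 and 10.18 in differentiation and 7.51, 7.28 and 7.84 in proliferation, a fitted log2 difference of 2.62 with SE 0.15 (limma, adjusted p = 0.0014). Col16a1 and Col18a1 rose with log2 fold changes of 0.74 and 0.67, and Col12a1, another fibril-associated chain, fell by 0.98. The chains of the main fibrillar collagens did not pass, with log2 fold changes of 0.17 for Col1a1, 0.11 for Col1a2 and 0.37 for Col3a1 (adjusted p = 0.716, 0.834 and 0.174). The study lists Col14a1, Col16a1, Col18a1 and Col12a1 among genes selected on these samples. Col14a1 passed with each array left out, Col16a1 and Col18a1 lost the call when differentiation replicate 1 or proliferation replicate 3 was left out (adjusted p between 0.0514 and 0.0716), and Col12a1 lost it without any of the differentiation arrays or without proliferation replicate 3 (adjusted p between 0.0962 and 0.126). The number of chains past the test was 1 without differentiation replicate 1 or proliferation replicate 3, and 3 without differentiation replicate 3.

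P4ha1, P4ha2, Plod1 and Plod2 are known as targets of hypoxia-inducible factor, so its other targets were set beside them. Among 29 of them 3 rose and 5 fell (27.6% past the test), 21 did not pass, and the median was -0.15. Increases and decreases both occurred, and the list did not move in a single direction. Stc2, a secreted glycoprotein, read 10.39, 10.39 and 10.58 in differentiation and 8.24, 7.11 and 8.21 in proliferation, and rose by 2.60 log2 units with SE 0.30 (limma, adjusted p = 0.00713). Pfkfb4 and Pfkfb3, enzymes of one family that set the level of a glycolytic activator, went opposite ways, with log2 fold changes of 1.64 and -0.83 (adjusted p = 0.00647 and 0.00923). Slc16a3, a lactate exporter, fell too, with a log2 difference of -0.81 (adjusted p = 0.015). The other called members were Egln3, described above, Narf, Pfkl and Ndrg1, of which the last 3 are named so that all are given. Narf, which binds prelamin A, and Pfkl, a subunit of phosphofructokinase, fell, with log2 differences of -0.76 and -0.61, and Ndrg1 rose by 0.70 log2 units (adjusted p = 0.00819, 0.0218 and 0.0114). The groups did not overlap in 6 of the 29 that were higher and 11 that were lower in differentiation, against 14.6% and 12.9% of all genes. Stc2, Pfkfb4 and Narf passed with each array left out. Pfkfb3, Slc16a3 and Ndrg1 lost the call without differentiation replicate 1 or proliferation replicate 3 (adjusted p between 0.0507 and 0.0756). Pfkl lost it without these or without differentiation replicate 2 or proliferation replicate 1 (adjusted p between 0.0593 and 0.107). The count of the list was 3 without differentiation replicate 1 or proliferation replicate 3 (294 and 480 clusters in the whole table, against 1459). It was 7 without differentiation replicate 2 or proliferation replicate 1, 8 without differentiation replicate 3 and 10 without proliferation replicate 2.

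**Figure D4:**
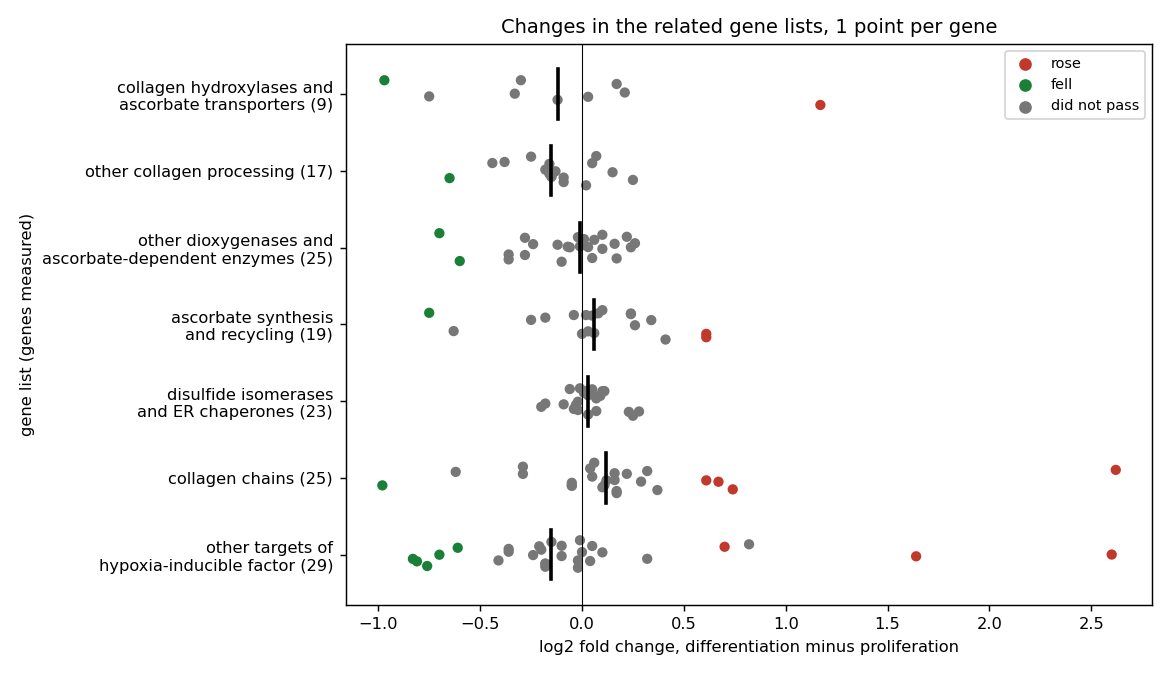
Log2 fold change, differentiation minus proliferation (horizontal axis), of every measured gene of the 9 hydroxylase and transporter genes and of the 6 related lists (vertical axis, with the number of genes), 1 point per gene from 3 arrays per group, red where the gene rose, green where it fell and grey where it did not pass, with list medians as black bars and a vertical scatter that carries no value. The medians lie between -0.15 and 0.12, and the chaperone list holds 0 coloured points.

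Among the 133 other genes of these lists, those most like Plod3 over the 6 arrays were Ugdh (Pearson r = 0.993) and Col16a1 (r = 0.992), and those most like P4ha1 were Egln3 (r = 0.992) and Kdm3a (r = 0.984). These correlations describe 6 arrays in 2 groups and so mostly restate the difference between the groups. Kdm3a, a histone demethylase, read 8.76, 8.85 and 8.74 in differentiation and 9.03, 9.05 and 9.00 in proliferation, and its log2 fold change of -0.24 did not pass (adjusted p = 0.183 from limma).

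Markers of enteric glia and progenitors, as the label of the tissue calls for, were all above the median cluster mean, with an average log2 value over 10 markers of 10.88 to 10.96 in differentiation and 10.52 to 10.90 in proliferation. Of these 3 rose and 2 fell, 5 in all (9 at an unadjusted p under 0.05), and the count was 1 without differentiation replicate 1 and 2 without differentiation replicate 3 or proliferation replicate 3. For this and the next counts, the shares over all genes were 5.91% past the test (2.94% upwards, 2.97% downwards) and 19.1% at an unadjusted p under 0.05. Marker counts with an array left out are likewise to be read beside the whole-table counts given above. By the same average, 13 fibroblast markers gave 10.96 to 11.07 in differentiation and 10.71 to 11.33 in proliferation, and 0 of them passed limma's adjusted test (2 at an unadjusted p under 0.05). Of 10 smooth muscle markers 4 rose and 1 fell (7 at an unadjusted p under 0.05), with an average of 7.61 to 7.75 in differentiation and 7.24 to 7.42 in proliferation. Without differentiation replicate 1 the smooth muscle markers past the test numbered 2, and without proliferation replicate 3 they numbered 3. All 10 mitosis markers fell, with averages of 7.30 to 7.58 in differentiation and 9.18 to 9.99 in proliferation. Endothelial and macrophage markers lay mostly below the median cluster mean (6 of 8 and 8 of 8), and 0 of either passed limma's adjusted test (1 and 0 at an unadjusted p under 0.05). Of 10 epithelial and mesothelial markers 8 lay below it and 0 passed, also before adjustment. Among 11 neuron markers 2 rose (4 at an unadjusted p under 0.05), and among 6 markers of interstitial cells of Cajal 2 fell (5 at an unadjusted p under 0.05). The Cajal count was 0 without differentiation replicate 1, 4 without proliferation replicate 2 and 1 without any other array. The neuron count was 1 without differentiation replicate 1, 2 or 3 or proliferation replicate 1. The part of smooth muscle or dividing cells in the changes of Plod3 and P4ha1 was not tested.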

How the data were processed

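Total RNA of 6 enterosphere samples was measured on Affymetrix whole-transcript mouse gene arrays, 1 per sample. The authors ran RMA in Partek Software 6.6 and deposited log2 values, after background correction, quantile normalization between arrays and a summary of the probes of each transcript cluster. A shift common to most transcripts is thereby removed. The genome build is not given in the sources used here. Symbols came from the platform's annotation, and 0 were updated through Entrez identifiers of GRCm38.p6. The comparison used lmFit and eBayes of limma 3.58.1 under R 4.3.3, two-sided and unfiltered, on 35556 clusters, with group as the only term. Where a gene had several clusters, the one with the highest mean over 6 arrays was used. The fit was tested on 35556 simulated clusters with the means and within-group SDs of the real ones. Of simulated 1.5-fold changes 22.4% passed (15 of 67), of 2-fold changes 64.2% (43 of 67) and of 4-fold changes 89.4% (59 of 66). Among 121 calls 4 were false. The real data gave 1459 calls, so the Benjamini-Hochberg adjustment set a stricter cutoff on p in the simulation. The shares recovered may therefore be lower than in the real comparison. A gene that did not pass is still not shown to be unchanged. Tables were handled in Python 3.11.15 with pandas 2.3.3, exact tests run in scipy 1.17.1 and plots drawn with matplotlib 3.10.9.

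The 9 genes, the 15 gene lists and the tests were chosen with earlier results of these data known. Of 234 list entries, 224 were measured and the others were not analysed here. Named were all 9 genes, in each of the 6 pathway lists up to 4 genes past the test with the largest change, and the 2 list genes most correlated with each of Plod3 and P4ha1. Further names were added where stated and for Gulo, Col1a1, Col1a2, Col3a1 and Col27a1, after their values had been seen. Correlations between arrays were 0.988 to 0.995 within groups and 0.983 to 0.989 across. Precision depends on how many arrays there were and how far they spread (median SD within a group 0.14), as intensities have no read depth. The labels do not say whether replicates are separate cultures, while the methods speak of independent experiments; p-values otherwise measure only the spread between these samples. Also tried were a block for the replicate number, trended robust variances, cyclic loess, median centring, bright clusters alone, array weights, leaving out each array, the mean of a gene's clusters, and the t-test of the methods, as stated and with Benjamini-Hochberg adjustment.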

Additional observations from a re-analysis of the deposited data

How the results depend on the processing

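Under each of the 15 alternatives tried, Plod3 rose and P4ha1 fell past the threshold, with log2 fold changes from 1.12 to 1.22 and from -1.04 to -0.92. With the replicate number as a block, 2 of the 9 genes passed (adjusted p = 0.0158 for Plod3 and 0.0208 for P4ha1), while the clusters called in the whole table fell to 664, against 1459 without it. Of the 18 pathway list genes called, 9 lost the call with the block (Colgalt2, Asph, Ugdh, Ugp2, Glrx, Col12a1, Col27a1, Pfkl and Slc16a3, adjusted p between 0.0527 and 0.135), which left 0 of 17 for collagen processing, 1 of 25 for dioxygenases, 0 of 19 for ascorbate synthesis and recycling, 3 of 25 for collagen chains and 6 of 29 for targets of hypoxia-inducible factor. Same-numbered arrays did not deviate together (correlations of their deviations from the group means -0.003, 0.09 and -0.074), and 0 of the 3 differentiation arrays correlated best with their own number, and the methods, which describe independent experiments with littermates, do not tie them to the numbers, so the numbers were not taken as pairs. Leaving out each array gave from 294 clusters (without differentiation replicate 1) to 1297 (without proliferation replicate 1), and 2 of the 9 genes every time. The clusters numbered 253 when the t-test of the methods was adjusted by Benjamini-Hochberg. With array weights, which gave differentiation replicate 1 a weight of 7.45 and proliferation replicate 3 a weight of 3.62, 12721 clusters and 8 of the 9 genes passed, all but Slc23a1. Plod1 also passed on bright clusters alone, on the mean of a gene's clusters and with trended robust variances (lowest adjusted p = 0.00649 over its alternatives, with array weights). The Slc23a1 change, 0.03 in the comparison of all arrays, turned to -0.01 with array weights and with median centring, to -0.03 with cyclic loess, and to between -0.10 and 0.17 with an array left out (-0.10 without differentiation replicate 3, -0.03 without proliferation replicate 2), and it could not be given on bright clusters alone. The causes were not tested. Median centring moved all log2 fold changes by -0.035.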

Other observations

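On the first principal component, which separated the groups with 44.2% of the variance, the differentiation arrays lay at -30.74, -22.88 and -32.59 and the proliferation arrays at 20.33, 37.93 and 27.95, in the order of their replicate numbers.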
